A study of Mus musculus with 8 samples.

Results

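The circadian clock of heart cells is a loop of transcription factors. The genes described here encode activators and repressors of that loop, together with protein kinases that act on it. They are Arntl, Npas2, Clock, Cry1, Cry2, Nfil3, Rora, Bhlhe40, Csnk1d and Csnk1e, 10 of the 30153 genes in the deposited table. They were chosen by name with earlier results of these data known, among them the difference in transcript level between western diet and control. That difference is therefore given for each of them as a description, with no p-value, and nothing is supported by it.

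RNA came from hearts of aged C57/BL6 mice with a transgene, haplotype II of the gene for the human angiotensin receptor of type 1, which by the series title is overexpressed. All 8 libraries share that transgene and the label of advanced age. The 4 control libraries are labelled as aged haplotype II only, and the 4 western diet libraries as aged haplotype II on western diet, whose composition they do not state. The promoter of the transgene, the sex and exact age of the mice, the length of feeding and the hour of collection are not stated in the labels. They do not say either whether each library is a separate animal, so a p-value here reflects spread among these libraries that may be technical.

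In the clock of mammals, BMAL1 (encoded by Arntl) pairs with CLOCK or NPAS2, and the pair activates genes through E-boxes in DNA. Among the activated genes are the PER and CRY proteins, which return to the nucleus and inhibit the pair, and the REV-ERB receptors, which repress Arntl. REV-ERB and ROR receptors compete for the same DNA element, so Arntl, Npas2, Clock, Cry1 and Nfil3 tend to peak near the time when the PER and REV-ERB genes and the output factors DBP, TEF and HLF are low. In heart the loop times fuel use, ion channel levels and growth responses. Without an hour of collection the phase itself cannot be read from these libraries.

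The stretches of DNA in which the elements named above occur are shown first, since they are where those factors could meet the genes. RefSeq windows on GRCm38.p6, from 250 bases before to 50 bases after each annotated start, were found for 8 of the 10 genes; Bhlhe40 and Csnk1d were not matched. Both strands were searched for CACGTG (the E-box), CACGTT (a variant of it), TAGGTCA and TGGGTCA (cores of the ROR and REV-ERB element) and TTANGTAA (the D-box, bound by DBP, TEF, HLF and NFIL3). None of these motifs contains another. The sequences read 5′ to 3′ on the strand of the gene, with matches in capitals.
Arntl, plus strand, chr7:113207530-113207559: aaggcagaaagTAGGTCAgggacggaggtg
Nfil3, minus strand, chr13:52981033-52981062: gcgctcggaacTGACCTActaacacacatc
Cry1, minus strand, chr10:85185065-85185193: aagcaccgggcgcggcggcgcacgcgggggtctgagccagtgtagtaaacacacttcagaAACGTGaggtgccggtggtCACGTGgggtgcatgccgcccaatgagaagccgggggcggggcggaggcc
Cry2, minus strand, chr2:92434170-92434295: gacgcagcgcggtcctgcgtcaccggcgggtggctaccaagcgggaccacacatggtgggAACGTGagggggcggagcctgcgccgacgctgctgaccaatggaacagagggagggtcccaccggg

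The ROR element core lay in the window of Arntl, 30 bases after the second of its 2 RefSeq starts, and in that of Nfil3, on the opposite strand with its first base 12 bases before the RefSeq start. Of all 32851 windows 2.61% hold TAGGTCA. The E-box of Cry1 began 60 bases before its start, and the variant 79 bases before it on the opposite strand. The variant of Cry2 began 166 bases before its start, also on the opposite strand. CACGTG is in 7.15% and CACGTT in 4.68% of all windows. No window of the 8 genes held TGGGTCA (3.98% of all windows) or the D-box (2.32%), and those of Npas2, Clock, Rora and Csnk1e held none of the 5 motifs. A match of letters is not evidence of binding, and elements outside these windows were not searched.

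Levels are in TPM, transcripts scaled to a common total, which corrects for transcript length, so genes can be compared with each other; TPM keeps no read depth, and the depth of the libraries is unknown. The columns summed to between 941318 and 953448 TPM, and 10620 to 11175 genes per library reached 1 TPM. Markers listed for heart muscle were all present, the 8 of them summing to 45339 to 49661 TPM in controls and 38298 to 47845 TPM with western diet. Some libraries stood apart. The 4 Y-linked transcripts summed to 38.6 to 52.6 TPM in the controls and 41.3 TPM in western diet replicate 4, but to 0.227 to 0.270 TPM in western diet replicates 1, 2 and 3. Apart from western diet replicate 4, this split is the same as that between the diet groups, so only that library tells them apart. In fits below with a term for Y-linked transcripts, the diet estimate rests on it. The 4 atrial markers were highest in control replicates 1 and 3 (895 and 6176 TPM) and western diet replicate 2 (1565 TPM), against 75.1 to 176 TPM elsewhere. The 3 red cell markers summed to 9056 TPM in western diet replicate 1 and to 1301 to 3329 TPM in the other libraries. The 4 kidney markers summed to 9.02 to 79.0 TPM with western diet and 0 to 0.685 TPM in controls. That sum moved with the diet groups. The sum of the 4 macrophage markers did so too, at 49.9 to 60.9 TPM in controls and 61.1 to 99.3 TPM with western diet. So did that of the 3 neutrophil markers, at 4.08 to 7.38 and 8.83 to 16.4 TPM. C1qa was the only macrophage marker without overlap between the groups, and S100a8 the only neutrophil marker. C1qa was at 35.4 to 41.7 TPM in controls and 43.2 to 75.9 TPM with western diet. Kap, at 7.15 to 72.1 TPM with western diet, made up most of the kidney sum, and the groups overlapped for Umod. The part of the kidney, macrophage, neutrophil and red cell lists in any difference below was not tested. In whole tissue, fewer cells of a type and less RNA per cell cannot be told apart.

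Arntl, the gene of BMAL1 (ENSMUSG00000055116, chromosome 7, 113207465 to 113314126, GRCm38), was at 1.70, 0.950, 1.95 and 1.07 TPM in control replicates 1 to 4 and at 3.22, 5.25, 4.32 and 4.19 TPM in western diet replicates 1 to 4. Every western diet library lay above every control, with replicate 2 the highest and replicate 1 the lowest of its group. The means were 1.42 ± 0.483 and 4.24 ± 0.831 TPM (SD, n = 4 per group), a ratio of 2.99, and the difference in log2(TPM + 1) was 1.12 (SE 0.16). The coefficient of variation was 34.1% among controls and 19.6% with western diet.

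Npas2, a partner of BMAL1 that can stand in for CLOCK (ENSMUSG00000026077, chromosome 1, 39193731 to 39363236), was the lowest of the 10 genes, at 0.399, 0.311, 0.422 and 0.592 TPM in controls and 1.05, 1.51, 0.966 and 1.11 TPM with western diet. The groups did not overlap, and as for Arntl western diet replicate 2 was the highest. Its mean went from 0.431 ± 0.117 to 1.16 ± 0.239 TPM, a ratio of 2.69, with a log2 difference of 0.59 (SE 0.097, from the fit without a filter on low values). Only 3 libraries, all of them western diet, reached 1 TPM, so Npas2 was not among the genes tested.

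Clock itself (ENSMUSG00000029238, chromosome 5, 76209868 to 76304792), which encodes the usual partner of BMAL1, was at 2.74, 1.63, 3.73 and 3.59 TPM in controls and 3.37, 4.54, 4.21 and 3.72 TPM with western diet. The groups overlapped: 2 western diet libraries lay above every control and the other two within the control range. The log2 difference was 0.37 (SE 0.18), and 0.19 (SE 0.13) without control replicate 2, the lowest library.

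**Figure D1:**
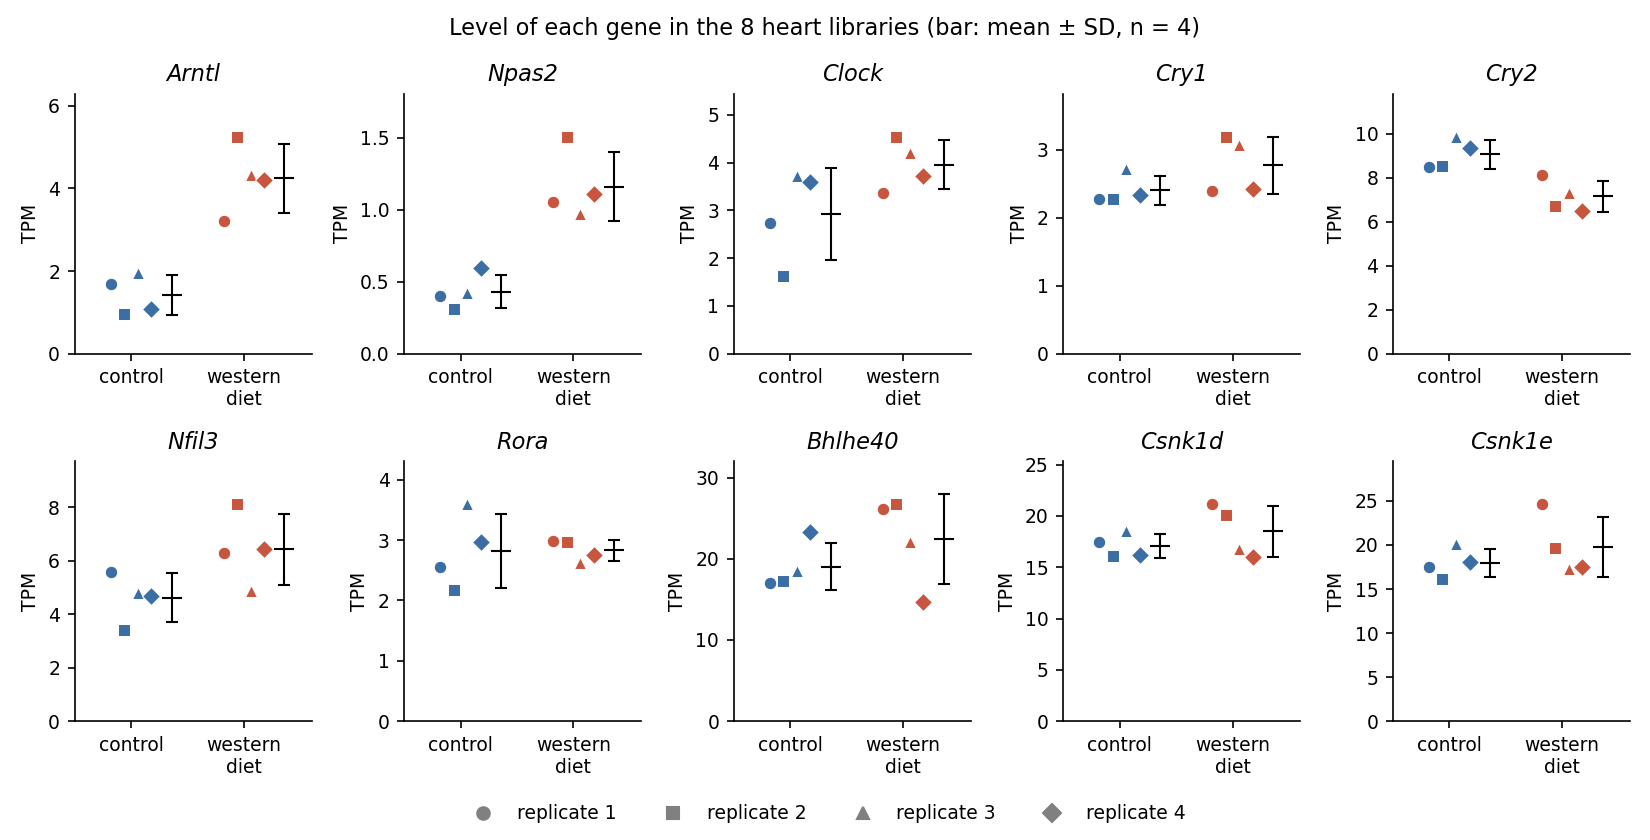
TPM (y axis, from 0) of the 10 genes in the 4 control and 4 western diet libraries; each symbol is 1 library, its shape the replicate number, which pairs nothing, and the bar is the mean ± SD. Arntl and Npas2 lie higher and Cry2 lower with western diet without overlap, while the groups of the other 7 genes overlap.

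Set against each other within a library, which cancels any scaling of that library, the activators differed in their balance. The ratio of Arntl to Clock was 0.618, 0.584, 0.524 and 0.299 in controls and 0.955, 1.16, 1.03 and 1.13 with western diet. Arntl was thus below Clock in all 4 controls and above it in 3 of 4 western diet libraries. Npas2 made up 12.7, 16.1, 10.2 and 14.2% of Npas2 and Clock together in controls and 23.8, 24.9, 18.7 and 23.0% with western diet. These shares did not overlap between the groups either. The ratio of Arntl to both partners added up was 0.439 ± 0.125 in controls and 0.824 ± 0.0664 with western diet (SD, n = 4). Arntl and Npas2 were already apart one by one, so these ratios and shares describe in part the same difference again.

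The cryptochromes, the inhibitors that close the loop, were unlike each other. Cry1 (ENSMUSG00000020038, chromosome 10, 85131700 to 85185064), the one usually expressed late in the cycle, was at 2.27, 2.27, 2.72 and 2.34 TPM in controls and 2.39, 3.19, 3.07 and 2.42 TPM with western diet. Western diet replicates 2 and 3 lay above all controls and replicates 1 and 4 within their range. The log2 difference was 0.14 (SE 0.11), and 0.011 (SE 0.17) with a model term for Y-linked transcripts. Cry2 (ENSMUSG00000068742, chromosome 2, 92403646 to 92434043) was at 8.50, 8.55, 9.86 and 9.34 TPM in controls and 8.11, 6.72, 7.29 and 6.48 TPM with western diet.

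All 4 western diet libraries lay below all controls for Cry2, with means of 9.06 ± 0.657 and 7.15 ± 0.725 TPM, a ratio of 0.789 and a log2 difference of -0.31 (SE 0.10). Cry2 was the 1 gene of the 10 with the lower mean under western diet, so it did not share the direction of Arntl, although both stand here under the name of BMAL1-phase genes. Of all 10969 genes that passed the filter on low values, 7286 had the higher mean log2(TPM + 1) with western diet and 3683 the lower. Cry1 made up 20.9 ± 0.677% of both cryptochromes in controls and 28.0 ± 4.01% with western diet (SD, n = 4). The lowest western diet share, 22.8% in replicate 1, was above the highest control share of 21.6%. Cry1 itself overlapped between the groups and Cry2 did not, so this share describes in part the difference of Cry2 again. The sum of both was 10.8 to 12.6 TPM in controls and 8.90 to 10.5 TPM with western diet.

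**Figure D2:**
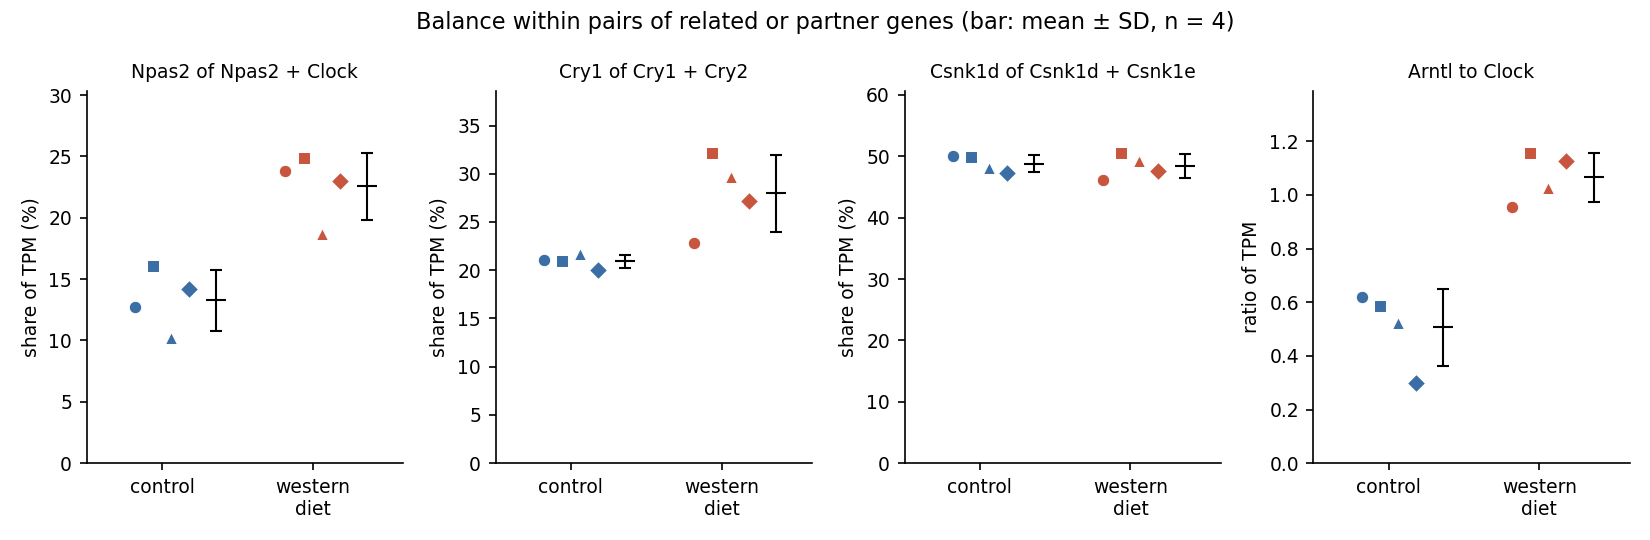
Share of TPM (%, first 3 panels) taken by 1 gene of a pair, and ratio of Arntl to Clock TPM (last panel), in each control (blue) and western diet (red) library, with mean ± SD. The shares of Npas2 and Cry1 and the ratio of Arntl to Clock do not overlap between the groups, whereas the share of Csnk1d overlaps at 46.2 to 50.6%. Npas2, Cry2 and Arntl were each already apart between the groups.

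Nfil3 encodes E4BP4, a repressor that binds the D-box in competition with DBP, TEF and HLF (ENSMUSG00000056749, chromosome 13, 52967209 to 52981073). It was at 5.58, 3.39, 4.81 and 4.70 TPM in controls and 6.30, 8.11, 4.87 and 6.46 TPM with western diet. Western diet replicates 1, 2 and 4 lay above all controls and replicate 3 within their range. The log2 difference was 0.40 (SE 0.16), the third largest of the 10 after those of Arntl and Npas2.

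Rora, which encodes the receptor that activates Arntl through the ROR element (ENSMUSG00000032238, chromosome 9, 68653786 to 69388246), was at 2.56, 2.17, 3.59 and 2.97 TPM in controls. With western diet it was at 2.98, 2.97, 2.61 and 2.75 TPM, and all of these fell within the control range. The means were 2.82 ± 0.609 and 2.83 ± 0.176 TPM and the log2 difference 0.015 (SE 0.12), with a sign that changed between alternative settings (-0.071 to 0.11). Spread was wider among controls, with a coefficient of variation of 21.6% against 6.23% in the western diet group.

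Bhlhe40, also called DEC1, encodes an E-box repressor that responds to many stimuli besides the clock (ENSMUSG00000030103, chromosome 6, 108660629 to 108666925). It was at 17.1, 17.2, 18.5 and 23.3 TPM in controls and 26.2, 26.7, 22.1 and 14.7 TPM with western diet. Western diet replicates 1 and 2 lay above and replicate 4 below all controls, so that the 4 libraries of the group spanned the whole control range. The log2 difference was 0.20 (SE 0.17). With the Y-linked term, under which the diet estimate rests on western diet replicate 4, it was -0.34 (SE 0.18).

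The kinases CK1δ and CK1ε phosphorylate the PER proteins and so set the pace of the loop. Csnk1d (ENSMUSG00000025162, chromosome 11, 120961749 to 120991330) was at 17.5, 16.1, 18.5 and 16.2 TPM in controls and 21.1, 20.1, 16.7 and 15.97 TPM with western diet. Csnk1e (ENSMUSG00000022433, chromosome 15, 79417856 to 79455566) was at 17.5, 16.2, 20.1 and 18.1 TPM in controls and 24.6, 19.6, 17.3 and 17.5 TPM with western diet. Both were highest in western diet replicate 1, and their groups overlapped.

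The log2 differences of the kinases were 0.10 (SE 0.11) for Csnk1d and 0.12 (SE 0.12) for Csnk1e; with the Y-linked term they were -0.089 (SE 0.15) and -0.028 (SE 0.18). Csnk1d made up 48.8 ± 1.38% of the pair in controls and 48.4 ± 1.91% with western diet. In western diet replicate 1 mitochondrially encoded transcripts held 27.3% of TPM, against 34.6 to 39.3% in the other libraries, which raises the TPM of other genes there. After these transcripts were removed and the rest rescaled, Csnk1e was at 35.9 TPM in that library and 26.1 to 32.3 TPM in the other 7. Csnk1d was then highest in western diet replicate 2.

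In order of level, controls held most of Bhlhe40 (19.0 ± 2.90 TPM), Csnk1e (18.0 ± 1.61 TPM) and Csnk1d (17.1 ± 1.15 TPM), whose ranges overlapped from each to the next. Cry2 followed, apart from its neighbours, then Nfil3, Clock, Rora and Cry1, again with ranges that overlapped from each to the next. Arntl came ninth and Npas2 last, each apart from the gene before it. With western diet the first 5 places were the same, but Arntl stood sixth, ahead of Clock in 3 of 4 libraries, and the ranges of Cry2 and Nfil3 overlapped.

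Of the 10 genes 9 passed the filter of at least 1 TPM in at least 4 libraries. In the limma fit over all 10969 genes tested, Arntl was the 1 of these 9 past an adjusted p of 0.05, where 0.228% of all genes passed with the higher level under western diet and 0.0729% with the lower. Of the 9, Arntl was higher and Cry2 lower without overlap between the groups, against 4.85% and 1.75% of all genes. Since the genes were chosen with this contrast known, nothing is read from these counts. The median log2 difference of the 9 was 0.14, beside 0.061 over all genes tested. The call of Arntl was lost without control replicate 2 (log2 difference 1.03, SE 0.17), without control replicate 4 (1.06, SE 0.18), with the Y-linked term (1.12, SE 0.27) and without the filter on low values (1.12, SE 0.18), each time with its direction kept.

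**Figure D3:**
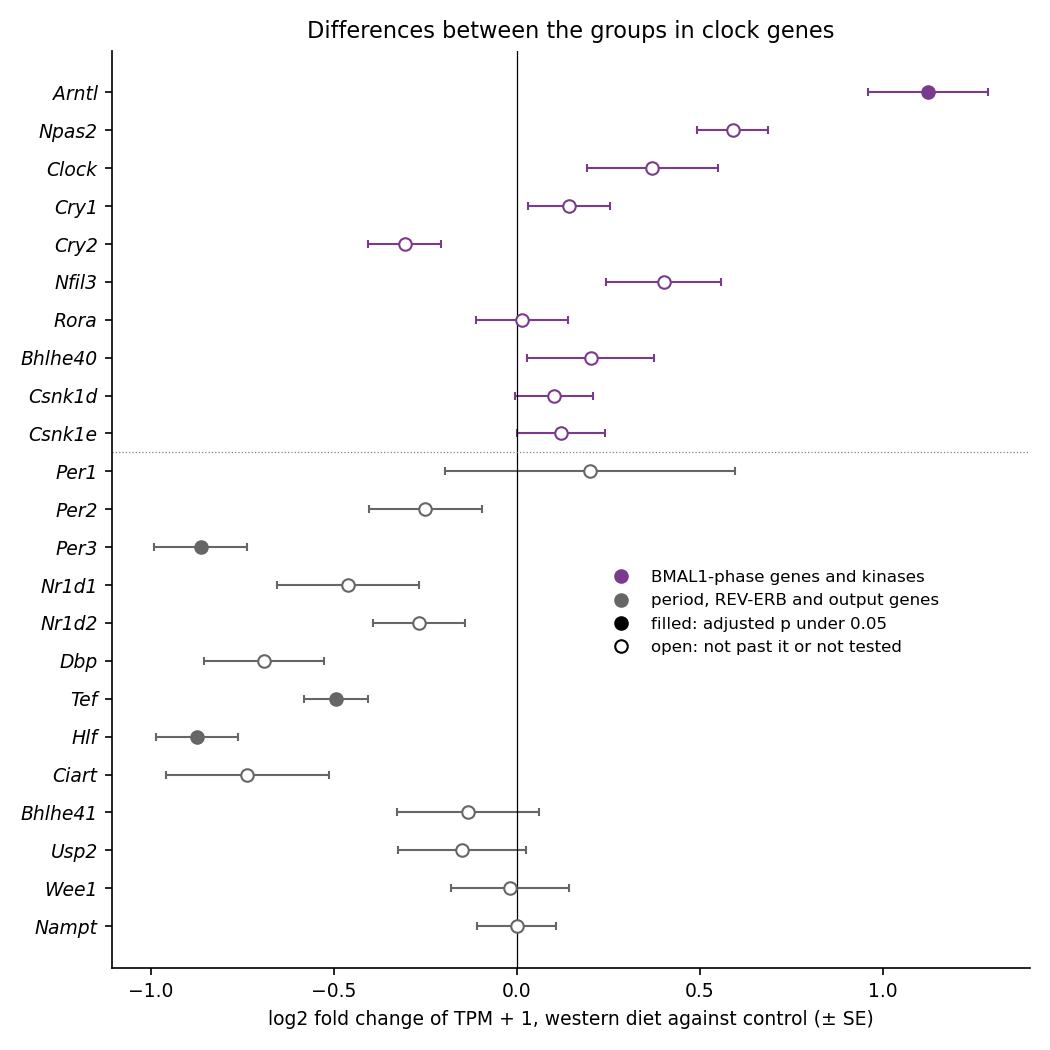
Difference in log2(TPM + 1) between western diet and control (x axis, points with SE from limma) for the 10 genes (top) and 13 period, REV-ERB and output genes (bottom); filled points passed an adjusted p of 0.05 over all genes. Arntl (1.12) lies farthest to the right, and Hlf (-0.87) and Per3 (-0.86) farthest to the left.

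The rest of the clock was read from a list of 37 genes, of which 32 were tested. That list was also chosen with earlier results of these data known, so its counts are given as a description. In limma 3 of the 32 fell past an adjusted p of 0.05, against 8 of all 10969 genes tested (0.0729%), and 0 rose. All 3 are among 13 period, REV-ERB and output genes. Of the 13, 12 had the lower mean log2(TPM + 1) with western diet, against 3683 of all 10969 genes. Of these 12, Nampt (36.2 TPM in controls, 36.5 TPM with western diet) and Wee1 (2.66 and 2.67 TPM) had a mean TPM slightly higher with western diet. The 3 that fell are the period gene Per3 (log2 difference -0.86, SE 0.13, adjusted p = 0.0169) and the output factors Hlf (-0.87, SE 0.11, adjusted p = 0.0121) and Tef (-0.49, SE 0.087, adjusted p = 0.0459). Without the 3 libraries rich in atrial markers none of them passed (adjusted p = 0.160, 0.200 and 0.316). Neither did any without control replicate 4 (limma adjusted p = 0.0748, 0.0537 and 0.152). The direction of all 3 was kept in both fits. In the same order, log2 differences were -0.87 (SE 0.18), -0.80 (SE 0.17) and -0.58 (SE 0.15) without the libraries rich in atrial markers. They were -0.85 (SE 0.15), -0.87 (SE 0.13) and -0.47 (SE 0.10) without control replicate 4. Per3 was also lost without control replicate 2 (adjusted p = 0.0868) or 3 (adjusted p = 0.0643), and Tef was called in 1 of the 8 fits that left out a library, the one without western diet replicate 4 (adjusted p = 0.0256). When Y-linked transcripts were a term of the model, adjusted p was 0.0272 for Hlf, 0.0859 for Per3 and 0.391 for Tef. Without the filter on low values it was 0.0715 for Hlf, 0.150 for Per3 and 0.134 for Tef. Tef also missed the threshold with median-of-ratios (adjusted p = 0.0732) or quantile scaling (adjusted p = 0.0625), without mitochondrially encoded genes (adjusted p = 0.0773), with a mean of at least 5 TPM (adjusted p = 0.0529) and without an intensity trend (adjusted p = 0.0733).

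The other named period, REV-ERB and output genes did not pass. Dbp, an output factor activated directly by BMAL1 and CLOCK, had a log2 difference of -0.69 (SE 0.16, limma adjusted p = 0.125), and its groups did not overlap. With the Y-linked term it passed, at -1.16 (SE 0.19, limma adjusted p = 0.0287). The REV-ERB genes Nr1d1 (-0.46, SE 0.19, limma adjusted p = 0.392) and Nr1d2 (-0.27, SE 0.13, limma adjusted p = 0.442) had overlapping groups. Per2 was at -0.25 (SE 0.15, limma adjusted p = 0.571). Per1, which also responds to hormones and cell stress, was at 0.20 (SE 0.40, limma adjusted p = 0.891), with 15.1 and 11.7 TPM in western diet replicates 1 and 2 but 3.73 and 3.38 TPM in replicates 3 and 4. Western diet replicates 1 and 2 were thus the high ones for Per1, Bhlhe40 and Csnk1d alike.

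Of 18 tested kinases, ligases and cofactors of clock proteins, from Csnk1a1 to Timeless, 0 passed in either direction in limma, and 2 had an unadjusted p under 0.05, Hdac3 and Timeless. The median log2 difference of the 18 was 0.093.

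**Figure D4:**
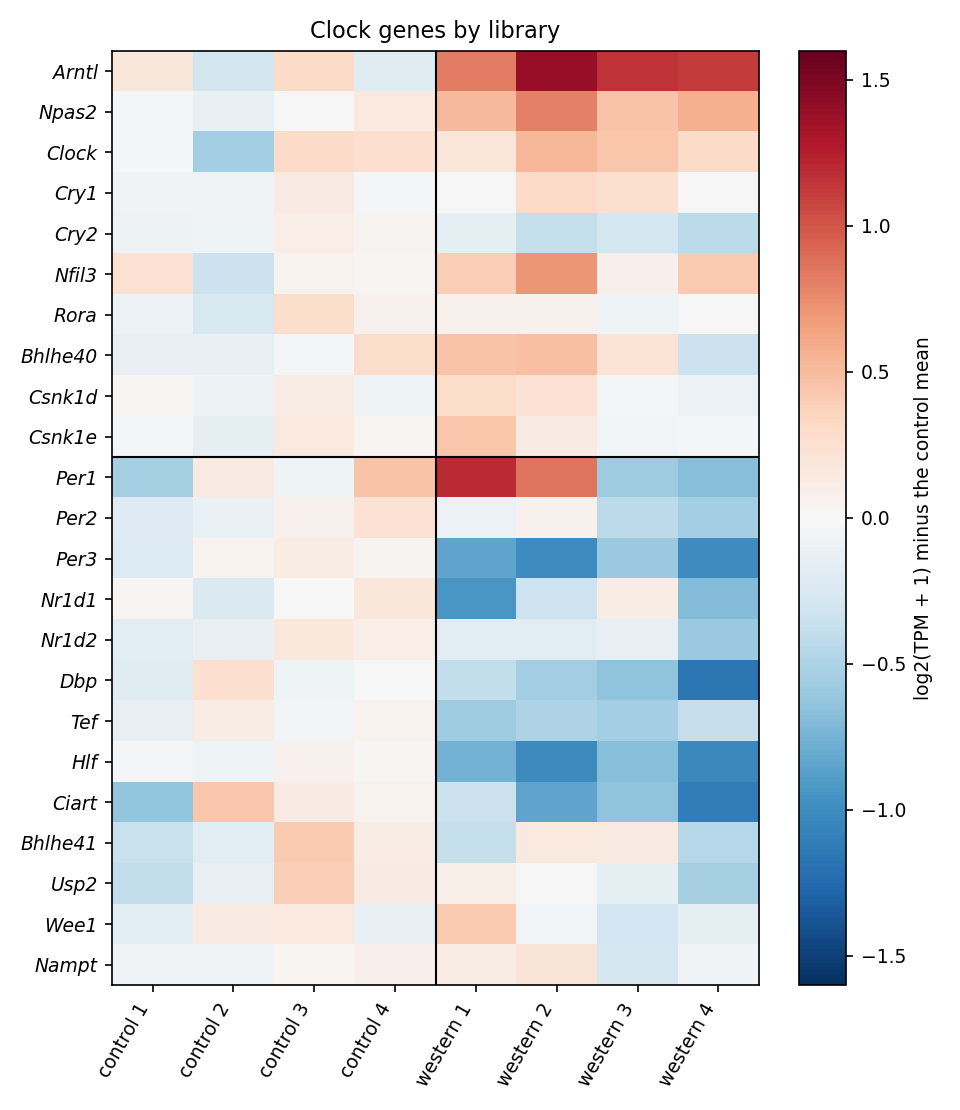
Colour gives log2(TPM + 1) minus the control mean of each gene for the 8 libraries (columns), with the 10 genes above and 13 period, REV-ERB and output genes below the line. Arntl and Npas2 are above the control mean in all western diet libraries and Per3, Dbp, Tef and Hlf below it; Per1 is high in western diet replicates 1 and 2 and low in replicates 3 and 4.

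Within a library the ratio of Arntl to these opposed genes separated the groups widely. Arntl to Hlf was 0.326, 0.190, 0.351 and 0.201 in controls and 1.19, 2.48, 1.49 and 2.03 with western diet. Arntl to Per3 was at most 0.627 in controls and at least 2.30 with western diet, and Arntl to Dbp at most 0.220 and at least 0.466. These ratios join genes that were already apart one by one, so they describe the same difference again.

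A measure that does not use the diet difference is how genes vary among libraries of 1 group. Deviations of log2(TPM + 1) from the group mean were correlated between Arntl and 17 clock genes over the 8 libraries, with an exact permutation test within groups (two-sided) and Benjamini-Hochberg adjustment over the 17. With Cry1 Pearson's r was 0.69 (exact permutation p = 0.0243, adjusted p = 0.413) and Spearman's rho 0.81 (exact permutation p = 0.0139, adjusted p = 0.236), and r was 0.56 without the 2 libraries farthest from the median of Arntl. With Clock r was 0.63 (exact permutation p = 0.146, adjusted p = 0.820) and rho 0.71 (exact permutation p = 0.0833, adjusted p = 0.472), but r was 0.090 without those 2 libraries, so that relation rests on them. It was 0.42 to 0.92 with any 1 library left out, highest without control replicate 4 (exact permutation p = 0.00694, unadjusted). Where 1 library is left out, that is the smallest p this test can give.

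With Nfil3 r was 0.57 (exact permutation p = 0.189, adjusted p = 0.820) and rho 0.71 (exact permutation p = 0.0833, adjusted p = 0.472), and r was 0.44 without the same 2 libraries. Npas2 gave r = 0.33, and the other members lay between -0.20 (Cry2) and 0.47 (Rora). The kinases depended on western diet replicate 1, without which r went from 0.21 to 0.82 for Csnk1d (exact permutation p = 0.00694, unadjusted) and from -0.070 to 0.79 for Csnk1e (exact permutation p = 0.0625, unadjusted). Without the 2 libraries farthest from the median of Arntl they were at 0.77 and 0.46, and after median-of-ratios scaling of all 8 at -0.20 and -0.50. Over the alternatives Npas2 ranged from -0.060 to 0.67, Cry2 from -0.65 to 0.29, Rora from 0.073 to 0.67 and Bhlhe40 from -0.60 to 0.12. For the 8 period, REV-ERB and output genes r ran from -0.43 (Dbp) to 0.43 (Nr1d1), and that of Hlf was -0.15. By this exact permutation test 0 of the 17 relations passed an adjusted p of 0.05 by r or by rho, and 1, that with Cry1, had an unadjusted p under 0.05. The relation with Cry1 had r = 0.56 (exact permutation p = 0.151) after median-of-ratios scaling. Co-variation within groups thus did not pass the adjusted threshold with 8 libraries, and single libraries moved it widely.

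Among 10427 other named genes tested, those with the pattern most like Arntl over the 8 libraries were Spon2, which encodes a secreted matrix protein (Pearson's r = 0.987), Pno1, a ribosome assembly factor (0.979), Frzb, a secreted inhibitor of Wnt ligands (0.977), Mthfd2, a mitochondrial folate enzyme (0.975), and Ttll5, a tubulin-modifying enzyme (0.973). The lowest values were those of the transcription factor Snai3 (-0.939), the cytochrome Cyp2j6 (-0.937) and Tef (-0.926). All 8 of these genes separate the groups without overlap, so the diet difference is part of this likeness, and it is given as a description. Frzb for instance was at 1.52 to 1.98 TPM in controls and 3.18 to 4.60 TPM with western diet. On the same measure Nfil3 had r = 0.786 and ranked 522nd, Clock 0.734, Cry1 0.716 and Cry2 -0.825, and the kinases 0.416 (Csnk1d) and 0.311 (Csnk1e).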

How the data were processed

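The authors deposited 1 table of gene-level TPM with 8 library columns, all of them used. Tools and build named in the submitters' processing notes are kallisto, DESeq2 and GRCm38, without versions or roles; the annotation they used and how transcript values became gene values is not given in the sources used here. Per the labels' protocols, libraries were stranded and made from polyadenylated RNA. Symbols and positions (1-based) came from GENCODE M21 on GRCm38, which named 29732 of 30153 identifiers.

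Groups follow the labels, and replicate numbers, given by accession, pair no libraries. The 10969 genes that reached 1 TPM in at least 4 of 8 libraries were fitted by limma 3.58.1 (R 4.3.3) on log2(TPM + 1) (group as the only term, intensity trend, two-sided, Benjamini-Hochberg over all genes, adjusted p under 0.05). This scale understates changes of low genes. The fit was tested on simulated data. No count test was used, since TPM are not counts.

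The genes, the lists, the alternatives and the tests were chosen with earlier results of these data known. Named were the 10 genes, Per1, Per2, Per3, Nr1d1, Nr1d2, Dbp, Tef, Hlf, other listed genes past the threshold, and the 5 genes most and 3 least correlated with Arntl; Hdac3, Timeless and Prkaa1 were named after their values were seen. Alternatives were other pseudocounts, filters, scalings and variance models, a term for Y-linked transcripts (present where Eif2s3y reached 1 TPM), a fit without the atrial libraries (those where Myl7 reached 100 TPM), and each library left out. Ratios, shares and correlations were computed in Python 3.11.15 (pandas 2.3.3), and figures drawn with matplotlib 3.10.9.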

Additional observations from a re-analysis of the deposited data

Results flagged for a closer look

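Cry1 was at 2.72 TPM in control replicate 3, farther from the other 3 controls (2.27 to 2.34 TPM) than Dixon's ratio allows in a group of 4 (gap over range 0.85). It was the 1 of 20 groups examined, 2 for each gene, in which this happened, and chance gives about 1 in 20.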

How the results depend on the processing

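Over all genes, the 25 higher and 8 lower calls became 3 and 2 without a filter, 13 and 2 with a mean of at least 5 TPM, 40 and 21 with quantile scaling, 88 and 20 with library weights, and 5 and 0 without libraries with atrial transcripts. Higher calls were 45 with the Y-linked term, and lower calls were 18 (beside 31 higher) with median-of-ratios scaling. Leaving out 1 library gave 5 (control replicate 2) to 76 (western diet replicate 4) higher and 2 (control replicate 4) to 19 (western diet replicate 4) lower calls; each control left out gave 5 to 11 higher and 2 to 4 lower, western diet replicate 3 gave 45 higher, and replicate 1 gave 14 lower. The count of the 10 genes, 1 (Arntl), was 0 without a filter, with a mean of at least 5 TPM (which leaves Arntl untested) and with the Y-linked term, and 0 to 1 when 1 library was left out. For the other clock genes the 3 lower calls were 0 without a filter and without libraries with atrial transcripts. They were also 0 with a mean of at least 5 TPM, which leaves Per3 and Hlf untested. With 1 library left out they were 0 (control replicate 4) to 3. The cause of these changes in the counts was not tested. Without libraries with atrial transcripts 4 of the 10 genes were higher without overlap, in place of 2, with fewer libraries to overlap. The share of all genes without overlap was not computed for that setting, so nothing is read from this count. Arntl had a log2 difference of 1.03 to 1.55, Npas2 of 0.59 to 0.76, Clock of 0.19 to 0.48, Nfil3 of 0.29 to 0.51 and Cry2 of -0.43 to -0.27 over all settings that gave a value. For Npas2 these were only 2. They were the fit without a filter, which also gave its main value, and the fit without mitochondrially encoded genes. Rora kept its sign in 11 of 18, and Bhlhe40, Csnk1d and Csnk1e in 18 of 19 each. No paired analysis was possible because the labels give no replicate numbers that the groups share. TPM keeps no depth, so counting error at the low level of Npas2 is unknown.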

Other observations

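Prkaa1, which encodes a catalytic subunit of the energy-sensing kinase AMPK and stands in the list of clock cofactors, was at 1.11, 2.37 and 1.04 TPM in western diet replicates 1, 2 and 3. In western diet replicate 4 and the 4 controls it was at most 0.000306 TPM. It thus split the libraries as the Y-linked transcripts did, in the opposite direction. It reached 1 TPM in 3 libraries, was not tested, and was singled out after its values were seen. Whether values this far below 1 TPM mean that its RNA was absent, or come from the estimation of TPM, was not tested. Prkaa2, its partner gene, was at 13.4 to 20.2 TPM in controls and 15.01 to 21.5 TPM with western diet.

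Hdac3, the deacetylase recruited by REV-ERB receptors, was at 23.4 to 25.3 TPM in controls and 18.6 to 23.0 TPM with western diet, without overlap (log2 difference -0.23, SE 0.094, limma adjusted p = 0.392). Timeless, a replication fork factor named after a fly clock gene, was at 4.97 to 8.02 TPM in controls and at 5.81, 9.20, 9.64 and 12.2 TPM in western diet replicates 1 to 4 (log2 difference 0.49, SE 0.19, limma adjusted p = 0.363). Both were chosen after their values were seen.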
